A study of Mus musculus with 24 samples.

Results

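The transcripts described here were 10 genes that mark the endothelium of the liver, measured in whole liver of 24 mice on 3 high-fat diets. The 10 were Stab1, Stab2, Lyve1, Clec4g, Oit3, Pecam1, Kdr, Cdh5, Vwf and Eng, out of 18820 genes that had a probe set of their own on the array. Each gene was read from the probe set assigned to it alone, and where there were several, from the one with the highest mean over all livers. All 24 mice were male, pure-bred on a C57Bl/6 background and aged 4 to 6 months, and no transgene or deletion is named for them. For 7 weeks each mouse ate a diet in which fat supplied 45% of the energy, so the diets differed in the kind of fat and none was a low-fat control. Mice on the Trans diet received their fat as partially hydrogenated soy oil, those on the Cis diet as a mixture of canola oil and palm olein, and those on the Saturated diet as cocoa butter, with 8 mice on each. RNA of each liver was hybridised to 1 Affymetrix Mouse Gene 1.1 ST array, and levels are given as log2 RMA values, or as signals, which are 2 raised to that value. Over all probe sets, pairs of arrays correlated with r between 0.97 and 0.99. The array of Trans replicate 4 had the lowest median correlation with the others, 0.975. Several counts and medians are also given without it, though not every list value that it moved.

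Endothelial cells line every blood vessel, and in the liver most of them form the wall of the sinusoids, the capillaries in which blood meets the hepatocytes. Sinusoidal endothelium is pierced by open pores without a basement membrane, and it clears waste molecules from the blood through scavenger receptors and lectins. The endothelium of larger vessels is continuous, sealed by junctions, and stores von Willebrand factor. Of the 10 genes, Stab1, Stab2, Lyve1, Clec4g and Oit3 are mostly read as sinusoidal markers, although Lyve1 also marks lymphatic vessels and some macrophages. Pecam1, Kdr, Cdh5, Vwf and Eng are read as markers of endothelium in general.

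The mean signal over 24 livers was above 20 for 9 of the 10 genes, as it was for 8349 of the 18820 genes measured. Clec4g had the value 332 and Vwf, the only gene under 20, had 17.1. Since each probe set binds with its own strength, these signals do not rank the genes by abundance. The array measured whole liver, so fewer endothelial cells and less RNA per endothelial cell cannot be told apart in any value below.

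No member differed between diets by the test used, limma with Benjamini-Hochberg adjustment over all 35556 probe sets. For Trans against Saturated 0 of 10 members were called at an adjusted p under 0.05, where 0.00844% of all probe sets were, namely 3. For Trans against Cis 0 of 10 were called against a background of 0.00281%, a single probe set. For Cis against Saturated 0 of 10 members and 0% of all probe sets were called. At an unadjusted p under 0.05, Clec4g and Oit3 passed for Trans against Saturated, 2 of 10 beside 7.32% of all probe sets. Clec4g and Pecam1 passed for Trans against Cis, 2 of 10 beside 6.16%, and 0 of 10 passed for Cis against Saturated beside 6.57%. With Tukey's post hoc test on the same values, no member passed after adjustment. Before adjustment 2 of 10, Clec4g and Pecam1, passed for Trans against Cis, beside 947 of all 35556 probe sets. For Trans against Saturated 0 of 10 passed beside 1180 probe sets, and for Cis against Saturated 0 of 10 beside 1011. The few called probe sets, named after their values were seen, were those of Krt23, Pla2g6 and Urad for Trans against Saturated and a probe set without a gene name for Trans against Cis. The comparisons share livers, since the 8 Trans livers stand on one side of both contrasts with Trans and each other diet also serves in 2 contrasts.

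Promoter sequence for 5 of the 10 genes, Stab1, Stab2, Clec4g, Kdr and Eng, was available from RefSeq on the mouse build GRCm38.p6. The 250 bases before the transcription start are shown for the 4 genes that held AGGAAG, the core bound by ETS-family factors, which are active in endothelium. They include Clec4g, the gene with the lowest p among the 10. Each is printed 5′ to 3′ on the strand of the gene, and capitals mark AGGAAG or its reverse complement CTTCCT.
Clec4g: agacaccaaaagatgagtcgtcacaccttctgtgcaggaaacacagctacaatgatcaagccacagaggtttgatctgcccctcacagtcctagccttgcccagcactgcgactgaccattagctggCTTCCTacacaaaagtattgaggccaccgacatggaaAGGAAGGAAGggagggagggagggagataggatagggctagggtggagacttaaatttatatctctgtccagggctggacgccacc
Eng: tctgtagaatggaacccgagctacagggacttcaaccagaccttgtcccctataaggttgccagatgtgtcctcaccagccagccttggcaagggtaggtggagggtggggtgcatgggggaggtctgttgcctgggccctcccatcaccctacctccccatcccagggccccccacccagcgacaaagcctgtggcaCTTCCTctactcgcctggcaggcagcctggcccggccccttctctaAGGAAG
Stab1: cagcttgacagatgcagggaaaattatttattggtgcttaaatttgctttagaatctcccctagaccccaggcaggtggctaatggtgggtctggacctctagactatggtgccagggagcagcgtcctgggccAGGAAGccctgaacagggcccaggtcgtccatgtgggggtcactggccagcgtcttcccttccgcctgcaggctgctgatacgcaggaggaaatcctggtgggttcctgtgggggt
Stab2: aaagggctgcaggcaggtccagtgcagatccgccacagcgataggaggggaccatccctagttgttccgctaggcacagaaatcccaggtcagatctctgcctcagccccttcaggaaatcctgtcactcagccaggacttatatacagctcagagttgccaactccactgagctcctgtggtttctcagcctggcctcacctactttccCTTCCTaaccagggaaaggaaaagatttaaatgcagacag

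The Clec4g stretch lies at chr8:3720652-3720901 on the minus strand and held 3 matches, beginning 123, 86 and 82 bases before the start, the last 2 of which overlap. The Eng stretch, chr2:32646345-32646594 on the plus strand, held 2, beginning 52 and 6 bases before the start. Stab1, at chr14:31168642-31168891 on the minus strand, held 1 match 116 bases before the start, and Stab2, at chr10:87007943-87008192 on the minus strand, held 1 match 40 bases before it. The Kdr stretch, chr5:75978456-75978705 on the minus strand, held none. AGGAAG on either strand occurred in 29.5% of 32851 mouse promoters of this length, so 4 of 5 describes these windows and is no evidence of binding. Of the longer and overlapping ETS forms, GGAAGT occurred in Eng and Kdr and in 19.7% of promoters, and GGAAGTG in Eng and in 8.55%. The KLF core CCACCC occurred in Clec4g, Eng and Kdr and in 28.1% of promoters. The SOX core ACAATG occurred in Clec4g and in 10.7%, and TGCTGA, the core of the MAF site, in Stab1 and in 16.1%. The GATA forms searched, AGATAA and TGATAA, found in 9.99% and 7.94% of promoters, and the forkhead site TGTTTAC, found in 3.17%, occurred in none of the 5. Other GATA forms were not searched, and the Clec4g stretch shown holds one of them, AGATAG.

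**Figure D1:**
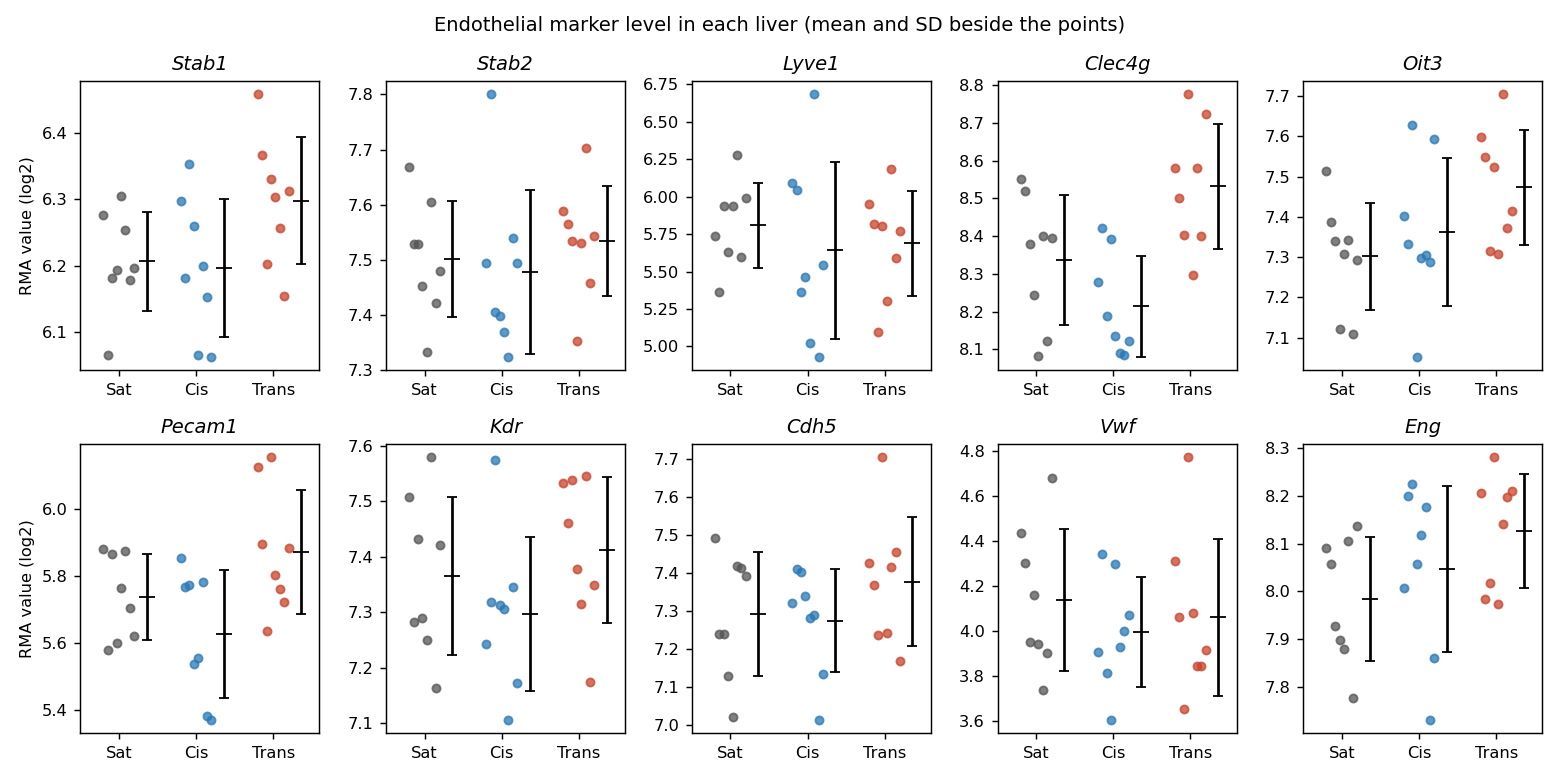
Log2 RMA value of each of the 10 genes in each of 24 livers. Every panel is 1 gene with its own vertical axis, points are livers set out by diet (Sat, Saturated), and the bar beside them is the mean ± SD of 8 livers. The 3 diets overlap in every panel, and Lyve1 and Vwf have the widest spread within a diet.

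Clec4g encodes LSECtin, a C-type lectin of sinusoidal endothelium that binds sugars on glycoproteins, viruses and activated T cells. Its log2 value ranged from 8.08 to 8.55 in Saturated livers with a median of 8.39, from 8.08 to 8.42 in Cis livers with a median of 8.16, and from 8.30 to 8.78 in Trans livers with a median of 8.54. All 8 Trans livers lay above the mean of the Cis livers and 7 of 8 above the mean of the Saturated livers, but the ranges of the 3 diets overlapped. As signals, the mean was 372 ± 43.0 in Trans, 325 ± 38.0 in Saturated and 298 ± 28.4 in Cis livers (SD, n = 8 each). Trans minus Cis was 0.32 on the log2 scale (SE 0.08, 95% interval 0.15 to 0.49, 1.25-fold), with an adjusted p of 0.550 by limma. Among all 35556 probe sets it ranked 35 by p in that comparison. The lectin differed less between Trans and Saturated livers, by 0.20 (SE 0.08, interval 0.03 to 0.36, adjusted p 0.622), and between Cis and Saturated livers by −0.12 (interval −0.29 to 0.04, adjusted p 0.848). A further probe set of Clec4g, not used here because of its mean signal of 3.59, gave −0.03 for Trans against Saturated.

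Stab1 and Stab2 encode stabilin-1 and stabilin-2, large scavenger receptors that take up modified lipoproteins, hyaluronan and collagen fragments. Stab1 ran from 6.07 to 6.31 in Saturated livers (median 6.20), from 6.06 to 6.35 in Cis livers (6.19) and from 6.15 to 6.46 in Trans livers (6.31). It was the steadiest of the 10, with a span of 1.32-fold between the lowest and the highest of 24 livers. Trans minus Saturated was 0.09 (SE 0.05, adjusted p 0.758, limma) and Trans minus Cis was 0.10 (SE 0.05, adjusted p 0.809), with 6 of 8 and 7 of 8 Trans livers above the other diet's mean. Cis and Saturated livers had nearly the same mean, −0.01 apart with an interval from −0.12 to 0.10. Stab2 ran from 7.33 to 7.67 in Saturated (median 7.50), 7.32 to 7.80 in Cis (7.45) and 7.35 to 7.70 in Trans livers (7.54). Its diet means lay within 0.06 of each other, and the intervals of all 3 differences held 0, the bound farthest from 0 being 0.19. The highest Stab2 value belonged to Cis replicate 2, although Cis had the lowest mean.

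Lyve1 encodes a hyaluronan receptor of sinusoidal and lymphatic endothelium, and no other member varied so much. In Saturated livers it ran from 5.36 to 6.28 (median 5.84), in Cis livers from 4.93 to 6.68 (5.50) and in Trans livers from 5.10 to 6.18 (5.79). Both extremes of the 24 livers were Cis livers, replicate 7 at the bottom and replicate 6 at the top, 3.38-fold apart. With an SD of 0.43 within a diet, the differences carried wide intervals, −0.54 to 0.30 for Trans against Saturated, −0.38 to 0.47 for Trans against Cis and −0.59 to 0.26 for Cis against Saturated. For Cis against Saturated, ratios between 0.665 and 1.19 were inside the interval.

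Oit3 encodes a secreted zona pellucida-domain protein whose role in sinusoidal endothelium is little known. Its value ran from 7.11 to 7.51 in Saturated livers (median 7.32), from 7.05 to 7.63 in Cis livers (7.32) and from 7.31 to 7.70 in Trans livers (7.47). All 8 Trans livers were above the Saturated mean, while the ranges overlapped. Trans minus Saturated was 0.17 (SE 0.08, interval 0.01 to 0.34, adjusted p 0.661, limma), Trans minus Cis was 0.11 (interval −0.05 to 0.28) and Cis minus Saturated 0.06 (interval −0.10 to 0.23).

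Pecam1 and Cdh5 encode proteins that hold neighbouring endothelial cells together, PECAM-1 (CD31) and VE-cadherin. Pecam1 ran from 5.58 to 5.88 in Saturated livers (median 5.73), from 5.37 to 5.85 in Cis livers (5.66) and from 5.64 to 6.16 in Trans livers (5.84). The 8 Trans livers were all above the Cis mean, and 6 of 8 were above the Saturated mean, with overlap in both cases. Mean signals were 59.0 ± 7.79 in Trans, 53.5 ± 4.73 in Saturated and 49.8 ± 6.45 in Cis livers (SD, n = 8 each). Trans minus Cis was 0.24 (SE 0.09, interval 0.07 to 0.42, 1.18-fold) with an adjusted p of 0.723 by limma, rank 449 of 35556 by p. Trans minus Saturated was 0.14 (interval −0.04 to 0.31) and Cis minus Saturated −0.11 (interval −0.29 to 0.07). Cdh5, in contrast, had medians of 7.32, 7.31 and 7.39 in Saturated, Cis and Trans livers, in ranges of 7.02 to 7.49, 7.01 to 7.41 and 7.17 to 7.71. Only 5 of 8 Trans livers lay above either of the other means, and the differences were 0.08 against Saturated and 0.10 against Cis livers, with intervals that held 0.

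Kdr encodes VEGFR2, the main signalling receptor for VEGF-A in endothelium, and Eng encodes endoglin, a co-receptor for BMP9 and other TGF-β family ligands. Kdr ran from 7.16 to 7.58 in Saturated (median 7.35), 7.11 to 7.57 in Cis (7.31) and 7.18 to 7.55 in Trans livers (7.42). The highest Kdr value of all was in a Saturated liver, and Trans minus Cis, the largest of its differences, was 0.11 (SE 0.07, interval −0.03 to 0.26, adjusted p 0.846, limma). Eng ran from 7.78 to 8.14 in Saturated (median 7.99), 7.73 to 8.23 in Cis (8.09) and 7.97 to 8.28 in Trans livers (8.17). For Eng the Saturated livers had the lowest mean, and 7 of 8 Trans livers exceeded it. Trans minus Saturated was 0.14 (SE 0.07, interval −0.01 to 0.30, adjusted p 0.711), and Trans minus Cis was 0.08 (interval −0.07 to 0.23).

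Vwf encodes von Willebrand factor, the glycoprotein that tethers platelets and carries factor VIII, and it was the weakest signal of the 10. Its value ran from 3.74 to 4.68 in Saturated livers (median 4.06), from 3.61 to 4.34 in Cis livers (3.97) and from 3.66 to 4.77 in Trans livers (3.99). Trans replicate 4 held the highest value, while only 2 of 8 Trans livers exceeded the Saturated mean. Trans minus Saturated was −0.08 (SE 0.15, interval −0.38 to 0.23), and without Trans replicate 4 it was −0.18. Trans minus Cis was 0.06 (interval −0.24 to 0.37) and turned to −0.04 without that liver.

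**Figure D2:**
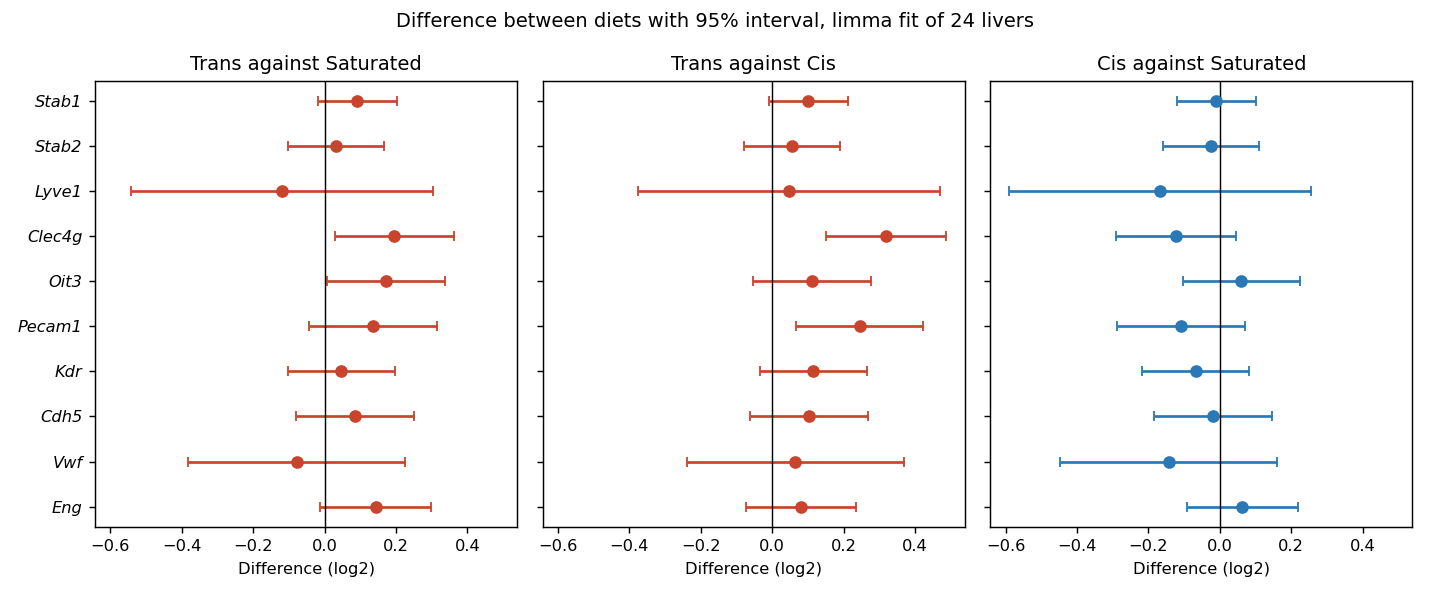
Log2 difference between diets for each of the 10 genes, with the 95% interval from the limma fit, in 3 panels for the 3 comparisons. For Trans against Cis all 10 points lie above 0 and the intervals of Clec4g and Pecam1 do not reach 0, while no gene passed after adjustment.

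Ordered by mean, 6 genes, Stab1, Stab2, Clec4g, Pecam1, Kdr and Cdh5, ran from Trans through Saturated to Cis. Oit3 and Eng were highest in Trans and lowest in Saturated livers. Lyve1 and Vwf were highest in Saturated and lowest in Cis livers. Since no neighbouring pair of diets differed after adjustment, these orders are descriptive. All 10 differences were above 0 for Trans against Cis, from 0.05 to 0.32 with a median of 0.10, where 50.5% of all 18820 genes and 55.2% of the 8349 with a mean signal over 20 were above 0. For Trans against Saturated 8 of 10 were above 0, with a median of 0.09, beside 51.6% and 48.9%. For Cis against Saturated 2 of 10 were above 0, with a median of −0.05, beside 51.4% and 43.4%. The median over all genes was 0.00 in each comparison. Over the 8349 genes with a mean signal over 20 it was 0.011 for Trans against Cis, −0.003 for Trans against Saturated and −0.017 for Cis against Saturated. The 10 genes are measured on the same arrays and vary together, so these counts do not hold 10 separate observations. With any 1 liver left out, 8 remained above 0 for Trans against Saturated, 9 or 10 for Trans against Cis and 2 to 5 for Cis against Saturated. Weighting the arrays by quality left 8 of 10 above 0 for Trans against Cis.

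Single livers contributed unequally. Each gene was set relative to its mean over the 24 livers, and the relative values of the 10 were averaged per liver. That average ran from −0.13 to 0.14 in Saturated, from −0.23 to 0.11 in Cis and from −0.11 to 0.24 in Trans livers. The medians were −0.02, −0.06 and 0.07. Trans replicate 4 was the highest of all livers for Clec4g, Pecam1, Cdh5, Vwf and Eng, yet ranked 22 of 24 from the top for Stab2. Cis replicate 7 was the lowest for Lyve1, Cdh5 and Eng, and Cis replicate 8 for Stab1 and Pecam1. Without Trans replicate 4, the median difference of the 10 from Saturated livers was 0.07 and from Cis livers 0.09. For Trans against Cis, Clec4g was then at 0.28, Pecam1 at 0.20, Cdh5 at 0.06 and Eng at 0.06. For Trans against Saturated, Clec4g and Oit3 were both at 0.16 and 0 of 10 members passed before adjustment, Pecam1 was at 0.10, Cdh5 at 0.04 and Eng at 0.12. Within a diet, the SD over livers was 0.43 for Lyve1, 0.31 for Vwf and 0.09 for Stab1, and between 0.12 and 0.17 for the other members. The median of these SDs was 0.156, beside 0.174 for the 8349 genes with a mean signal over 20.

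**Figure D3:**
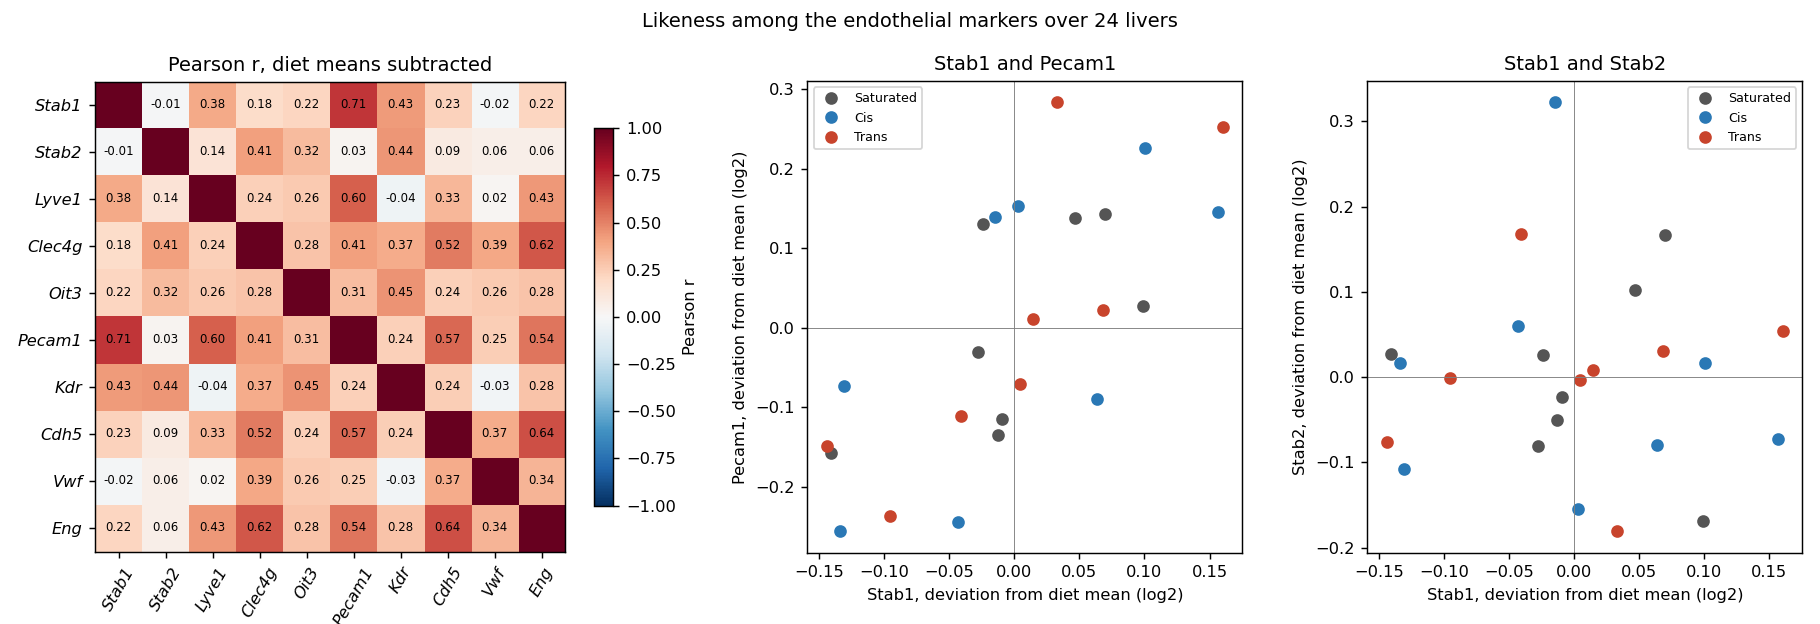
Pearson correlation between each pair of the 10 genes over 24 livers after the mean of each diet was subtracted. Stab1 with Pecam1 is the strongest pair at 0.71, and Stab2 has the weakest links with the other members.

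Across livers of the same diet most pairs of markers varied in the same direction, to different degrees. After subtraction of diet means, 41 of 45 pairs had a correlation above 0 over the 24 livers, with a median Pearson r of 0.28 and a range from −0.04 to 0.71. The median Spearman rho was 0.33. Within single diets of 8 livers the median r was 0.46 in Saturated, 0.19 in Cis and 0.45 in Trans. All these values are descriptions, since the genes of a liver share 1 RNA sample and 1 array. Stab1 followed Pecam1 most closely, with r = 0.71 and rho = 0.76, r = 0.66 without the 2 most distant livers, and 0.63, 0.67 and 0.81 within Saturated, Cis and Trans livers. Cdh5 followed Eng with r = 0.64 and rho = 0.66, Clec4g followed Eng with r = 0.62 and rho = 0.65, and Lyve1 followed Pecam1 with r = 0.60 and rho = 0.56. For the pair of stabilins r was −0.01 and rho −0.02. Averaged over its 9 partners, r was highest for Pecam1 at 0.41 and lowest for Stab2 at 0.17.

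Genes outside the 10 were searched for the closest pattern over the 24 livers, again after subtraction of diet means, among genes with a mean signal over 20. The mean of the 10 members, each scaled to unit SD, was most like Ets2, with r = 0.79. Cmtm3 and Il1a followed at 0.77, Camk1 at 0.76, App, Msn and Bgn at 0.75 and Rasgrp3 at 0.74. Pecam1 and Clec4g had a gene of the sinusoidal list used below as the closest, while the closest genes of the other members were on none of the lists. Pecam1 was most like Flt4 (VEGFR3), with r = 0.81, Clec4g most like Fcgr2b, the Fc receptor of sinusoidal endothelium, with 0.71, and Cdh5 most like Entpd1 (CD39), which degrades extracellular ATP, with 0.82. Lyve1 was most like Ctsz, a lysosomal protease, with 0.79, which was 0.62 without the 2 most distant livers. The closest genes of the others were Itpkb for Stab1 (0.79), Zfp292 for Stab2 (0.70), Slc20a2 for Oit3 (0.70), Tfip11 for Kdr (0.73) and Pttg1ip for Eng (0.81). For Vwf it was Dnajc4 (0.74), which was 0.60 without the 2 most distant livers. These are the highest of 8340 correlations each and are given as a ranking only.

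Other markers of the same endothelium, listed from general knowledge, were set beside the 10. Of 14 further sinusoidal genes, 14 were above 0 for Trans against Cis, with a median of 0.12. For Trans against Saturated 10 of 14 were above 0 (median 0.07) and for Cis against Saturated 3 of 14 (median −0.07). The last values depended on processing, with a median of −0.03 after renewed quantile normalisation, 5 of 14 above 0 without Trans replicate 4 and Cis replicate 8, and 6 of 14 without these and Saturated replicate 2. None of them was called by limma after adjustment. In Trans against Saturated, Trans against Cis and Cis against Saturated, 2, 1 and 1 of 14 had an unadjusted p under 0.05. Of all probe sets 7.32%, 6.16% and 6.57% did so. The largest of these were in Wnt genes, which sinusoidal and central vein endothelium supplies to hepatocytes. Trans minus Saturated was 0.30 for Wnt9b (SE 0.09, adjusted p 0.372, limma) and 0.37 for Wnt2 (SE 0.17), both with mean signals under 20. The mean log2 value of Wnt9b, 2.70, lay under the median of every array, of which the lowest was 2.94. Mrc1, the mannose receptor, had −0.18 for Cis against Saturated, and the transcription factor Maf had 0.15 for Trans against Cis. The signals of the 14 genes summed to between 1621 and 2091 in Saturated, 1669 and 2108 in Cis and 1803 and 2161 in Trans livers.

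Of 22 further genes of endothelium in general, 12 were above 0 for Trans against Saturated with a median of 0.00, 17 for Trans against Cis with 0.06 and 5 for Cis against Saturated with −0.04, where 9 were above 0 after renewed quantile normalisation. Without Trans replicate 4 the Trans against Saturated median was −0.01. None was called. Cd93, a surface lectin of endothelium and myeloid cells, had 0.41 for Trans against Saturated (SE 0.15, adjusted p 0.534, limma). Tek, the angiopoietin receptor, had 0.19 and Emcn (endomucin) 0.15 for Trans against Cis, and Calcrl, the receptor for adrenomedullin, had −0.18 for Cis against Saturated. Of 11 measured genes of continuous endothelium and tip cells, 9 were above 0 for Trans against Saturated (median 0.13), 9 for Trans against Cis (0.11) and 6 for Cis against Saturated (0.02). Without Trans replicate 4 the Trans against Saturated median was 0.06, and the Cis against Saturated median was −0.01 without Saturated replicate 2 and −0.04 with array weights. Thbd (thrombomodulin) differed by 0.35 for Trans against Cis and −0.31 for Cis against Saturated, and Vcam1, which binds leukocytes, by −0.37 for Cis against Saturated. Cd34 and Esm1, for Trans against Saturated, had 0.28 and −0.43. No gene of this list was called, and only 3 of the 11 had a mean signal above 20.

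Of 23 measured ligands and partners of the members, 11 were above 0 for Trans against Saturated with a median of −0.02, 14 for Trans against Cis with 0.05 and 5 for Cis against Saturated with −0.03, and none was called. After renewed quantile normalisation 12, 15 and 9 were above 0, and the median for Trans against Saturated was 0.00. Without Trans replicate 4, 17 were above 0 for Trans against Cis, with a median of 0.04. Vegfa, the ligand of the Kdr receptor, had −0.19 for Trans against Saturated and −0.18 for Cis against Saturated. Gdf2 (BMP9), the ligand that endoglin presents, had −0.18 for Trans against Saturated. Id3, a target of that pathway, had −0.62, and Nrp2, a co-receptor for VEGF, −0.19 for Cis against Saturated. Of 4 measured lymphatic genes, Pdpn, Mmrn1, Reln and Prox1, 3 were above 0 in every comparison. Their medians were 0.27, 0.18 and 0.03 for Trans against Saturated, Trans against Cis and Cis against Saturated. Reln is also on the list of quiescent stellate cells used below, so this list does not read lymphatic vessels alone. Pdpn had 0.48 for Trans against Saturated and Mmrn1 0.82 for Trans against Cis. Of 5 platelet genes 1, 4 and 0 were above 0 in that order. All 5 platelet genes had mean signals under 20, as did Pdpn and Mmrn1, and none of either list was called.

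**Figure D4:**
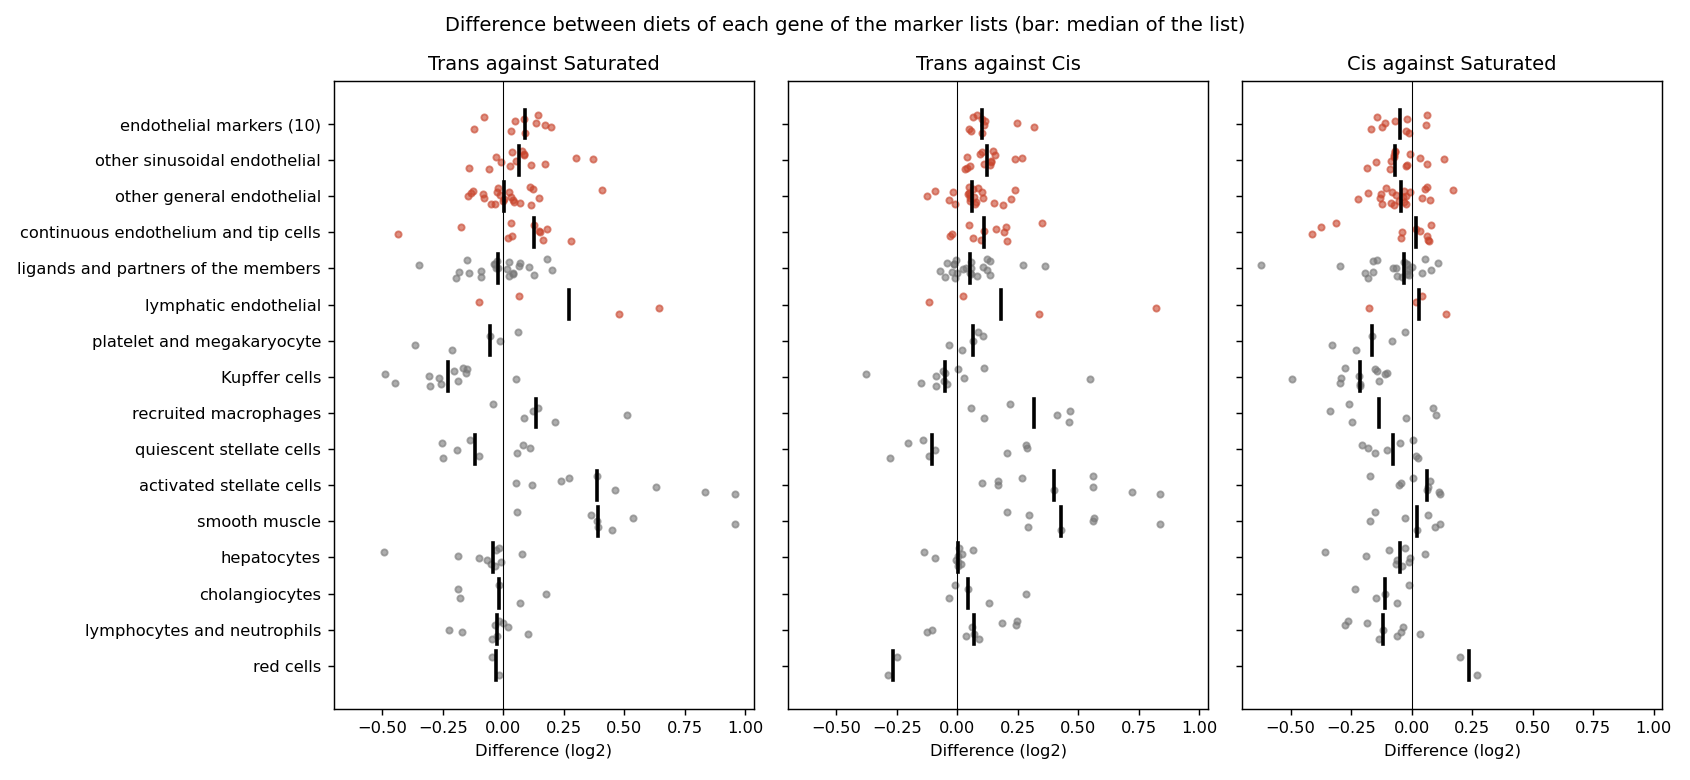
Log2 differences between diets for the 10 members and for lists of other endothelial and liver cell genes, 1 point per gene on a log2 axis, red for endothelial lists and grey for the others, with a black bar at the median of each list. The members and the other sinusoidal genes lie mostly above 0 for Trans against Cis, and genes of activated stellate and smooth muscle cells lie above 0 in both comparisons with Trans.

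Markers of other liver cells were summed and compared in the same way, and their part in the endothelial values was not tested. All 9 genes of activated stellate cells and all 7 of smooth muscle, lists that share Acta2 and Tagln, were above 0 in both comparisons with Trans, with medians of 0.39 and 0.40 for the former and 0.39 and 0.43 for the latter. Acta2 (0.96) and the collagens Col1a1 (0.83) and Col3a1 (0.63) were among the largest for Trans against Saturated, and none of either list was called. Activated stellate genes summed to between 138 and 485 in Trans, 130 and 190 in Saturated and 122 and 221 in Cis livers, and smooth muscle genes to 75.5 to 274, 63.3 to 110 and 67.2 to 122. Of these genes, 4 of 9 and 5 of 7 had mean signals under 20. Without Trans replicate 4 all were still above 0, with stellate medians of 0.26 in both comparisons with Trans and smooth muscle medians of 0.31 against Saturated and 0.32 against Cis. For Cis against Saturated 6 of 9 stellate genes (median 0.06) and 4 of 7 smooth muscle genes (0.02) were above 0, and without Saturated replicate 2 these were 5 (0.01) and 3 (−0.0049). Kupffer cell genes lay the other way, with 1 of 12 above 0 for Trans against Saturated (median −0.23), 4 of 12 for Trans against Cis (−0.05) and 0 of 12 for Cis against Saturated (−0.21). Without Trans replicate 4 the first 2 were 0 of 12 (−0.27) and 3 of 12 (−0.09). They summed to between 1409 and 2624 in Saturated, 1373 and 2415 in Cis and 1222 and 2389 in Trans livers, and Cd163 had −0.49 and Timd4 −0.45 for Trans against Saturated.

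Of 6 recruited macrophage genes, 5, 6 and 2 were above 0 for Trans against Saturated, Trans against Cis and Cis against Saturated, with medians of 0.13, 0.32 and −0.13. Quiescent stellate cell genes had 3 of 8 above 0 in each comparison, with medians of −0.12, −0.10 and −0.08, of which the first 2 were −0.07 and −0.03 without Trans replicate 4, and with Colec11 at −0.25 for Trans against Saturated (adjusted p 0.281, limma). Hepatocyte genes had 1, 7 and 1 of 10 above 0 in the same order, with medians of −0.04, 0.00 and −0.05. After median centring 2, 4 and 3 were above 0, and without Trans replicate 4 the first was 3. All 10 hepatocyte and all 12 Kupffer cell genes had mean signals over 20. Of 9 lymphocyte and neutrophil genes, all with mean signals under 20, 3, 7 and 1 were above 0, of 5 cholangiocyte genes 2, 3 and 0, and of 2 red cell genes 0, 0 and 2. The counts of these last 3 lists, and of the lymphatic and platelet genes, shifted by up to 2 genes under the other scalings, with array weights or without Trans replicate 4 or Saturated replicate 2. No gene of these lists was called.

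For comparison with the lists, the 10 members were centred on their diets and averaged over genes without scaling to unit SD. Genes with a wide spread, such as Lyve1 and Vwf, therefore weigh more in this mean. It correlated with the mean of the 22 general endothelial genes at r = 0.85 and rho = 0.85. The value was 0.92 within Saturated, 0.78 within Cis and 0.89 within Trans livers, and 0.87 without the 2 most distant livers. With the 14 sinusoidal genes r was 0.50, 0.34 without the 2 most distant livers, and 0.58, 0.69 and 0.19 within Saturated, Cis and Trans livers. Lists of continuous endothelium (0.72) and of ligands and partners (0.64) lay between these, and only 3 of the 11 genes of the former had a mean signal over 20. Lists of other cells reached values like that of the sinusoidal genes, 0.56 for platelets, 0.54 for lymphocytes and neutrophils, 0.49 for activated stellate cells, 0.47 for recruited macrophages and 0.46 for Kupffer cells. These were uneven between diets, for example 0.12, 0.30 and 0.72 within Saturated, Cis and Trans livers for activated stellate cells, and 0.59, −0.03 and 0.80 for lymphocytes and neutrophils. No gene of the platelet list or of the lymphocyte and neutrophil list had a mean signal over 20. With the hepatocyte genes r was −0.42. Among single members, Cdh5 followed the Kupffer genes most closely, at r = 0.70 and rho = 0.71. Of the 10 members, Stab1 had the highest correlation with the recruited macrophage genes, at r = 0.56 and rho = 0.52. Within Saturated, Cis and Trans livers that r was 0.30, 0.22 and 0.93, and only 2 of the 6 macrophage genes had a mean signal over 20. Stab1 was closer to the list of ligands and partners, at r = 0.59 and rho = 0.66. All these values come from 24 livers and describe values that share an array.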

How the data were processed

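Liver RNA of 24 mice, 8 per diet, was labelled and hybridised to Affymetrix Mouse Gene 1.1 ST arrays, 1 for each animal. The deposited values are log2 expression values that the authors obtained by robust multichip analysis (RMA), which corrects background, normalises by quantiles and summarises probes. RMA makes the distributions of all arrays alike, so a shift shared by most genes would not be seen. Deposited values ran from 0.309 to 13.46. Of 35556 probe sets, 21218 were assigned to 1 gene by the platform annotation, 1881 to several and 12457 to none. For each gene the single-gene probe set with the highest mean was used, and a Stab1 probe set shared with another gene was left out.

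Diets were taken from the sample titles, and replicates are separate mice. A model with 1 mean per diet was fitted to all probe sets and all 24 livers with limma 3.58.1 in R 4.3.3 (lmFit and eBayes, 21 residual degrees of freedom). Tests were two-sided, with Benjamini-Hochberg adjustment over all probe sets and a threshold of 0.05. The study names no model across genes for the livers. The fit was tested on simulated data. Intervals are 95% intervals. Arrays give no read depth, and the number of arrays limits the precision. Correlations were computed after subtraction of diet means with scipy 1.17.1 and are given without p. The named genes were all 10 members, up to 4 genes per list with the lowest p in any comparison, and the genes most like the members (8 for their mean, 1 for each).

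The alternatives were a fit of only the diets compared, replicate number as a block, array weights, a trended and robust variance, median centring, renewed quantile normalisation, a signal filter at 20, Tukey's post hoc test, other probe sets and left-out livers. The members and lists were chosen with earlier results of these data known. Counts for the lists under other scalings and without single livers were added after the data were seen.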

Additional observations from a re-analysis of the deposited data

Results flagged for a closer look

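Stab2 in Cis replicate 2 had a log2 value of 7.80, the highest of the 24 livers, and its distance to the next Cis liver was large for the range of the 8 Cis livers by Dixon's criterion. It was the only such value among 30 groups, 10 genes in 3 diets, and the criterion picks out about 1 in 20 groups by chance. Stab2 was not called in any comparison with or without this liver.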

How the results depend on the processing

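None of the 10 members was called in any comparison under any alternative. Of 300 member differences recomputed under other settings, 291 kept their direction and their side of the threshold, and 708 of 720 did so with 1 liver left out. Part of this agreement was fixed in advance. The trended variance, the fit of only the diets compared, the block, the filter and Tukey's test leave the difference itself unchanged. So does leaving out a liver of a diet outside the comparison. No member was near the threshold, since the lowest adjusted p in the main limma fit was 0.550. In the other settings and with 1 liver left out, the lowest adjusted p of any member was 0.340 and 0.474. With array weights Trans minus Cis was −0.044 for Lyve1 and −0.0023 for Vwf, and Vwf was at −0.027 without Trans replicate 4 and Cis replicate 8, with or without Saturated replicate 2. Cis minus Saturated for Stab1 was 0.0081 after median centring, 0.0089 after renewed quantile normalisation and 0.0094 without Trans replicate 4 and Cis replicate 8, where Cdh5 was at 0.0012. For Trans against Saturated, the dim second probe set of Clec4g gave −0.028 against 0.20 for the one used. With single livers left out, Cis minus Saturated ran from −0.058 to 0.018 for Cdh5, −0.032 to 0.0094 for Stab1 and −0.070 to 0.00011 for Stab2, and Trans minus Cis from −0.054 to 0.20 for Lyve1 and −0.037 to 0.12 for Vwf. Clec4g kept 0.28 to 0.35 and Pecam1 0.20 to 0.28 for Trans against Cis. The cause of these changes was not tested.

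The number of probe sets called over the whole array was unstable. For Trans against Saturated it was 3 as reported, 0 with only the livers of the diets compared, 0 with Tukey's test, 1 after median centring, 5 with the signal filter, 0 without Trans replicate 4 and Cis replicate 8, 15 without these and Saturated replicate 2, and 1 to 16 with single livers left out (6 without Saturated replicate 1, 16 without Saturated replicate 2). For Trans against Cis it was 1 as reported, 0 under each of the same settings other than median centring, and 0 to 2 with single livers left out. For Cis against Saturated it was 0 as reported, 3 without Saturated replicate 2, Trans replicate 4 and Cis replicate 8, and 0 to 3 with single livers left out. With replicate number as a block, 5, 0 and 0 probe sets were called in the 3 comparisons. Livers of the same number correlated weakly, with a median r of 0.09, 0.02 and −0.03 in the 3 pairs of diets. For livers of different numbers the medians were −0.012, −0.011 and 0.004. Of 8 same-number pairs 3, 3 and 1 were above 0.1. Weak correlations cannot show that the numbers do not pair the mice, so this was not settled.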
